A study of Rattus norvegicus with 12 samples.

Results

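Ndufa10l1, Mettl24 and Serhl2 are 3 of the 21239 genes with counts in the deposited table of rat left atrium. They were chosen by their large difference between the saline-treated Wistar-Kyoto (WKY) rats and spontaneously hypertensive rats (SHRs), so their levels in these 2 groups were the ground for choosing them and are described without a test. In the count table the genes carry the identifiers 316632 (Ndufa10l1), 499465 (Mettl24) and 500911 (Serhl2). Ndufa10 (678759), the gene after which Ndufa10l1 is named, was read beside it.

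RNA of the left atrium was sequenced as single-end reads of 50 bases in 12 libraries, 3 in each of 4 groups, with total counts of 11252361 to 15823525 per library. All rats were male and 14 weeks old at purchase, and each was dosed daily for 4 weeks. Saline at 7.5 ml/kg/day was given to the WKY group, of the normotensive strain, and to the SHR group, of the strain that becomes hypertensive. The ARB-treated group were SHRs given the angiotensin receptor blocker valsartan at 30 mg/kg/day, and the ARNI-treated group were SHRs given 60 mg/kg/day of sacubitril/valsartan, which adds an inhibitor of neprilysin. Libraries are named here by group and number (ARNI 2), and levels are given as CPM, the count of a gene scaled by the total count of its library. The limit that a count of 0 allows is 3 reads, which is 0.190 to 0.267 CPM in these libraries and covers counting error only.

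The labels and the tissue both limit these groups. For the 6 saline libraries the strain named in the title is the opposite of the strain in the library's name, the strain field names Wistar-Kyoto for all 12 libraries, and the groups follow the library names. The titles of the 6 treated libraries name SHRs. The 6 atrial cardiomyocyte markers (Myl7, Myl4, Sln, Nppa, Bmp10 and Mybphl) summed to 52.4 to 280 CPM in the WKY group, with Bmp10 at 0 in WKY 1 and Bmp10 and Mybphl at 0 in WKY 2. Those sums were 27693 to 77097 CPM in the SHR group, 36881 to 74320 CPM in the ARB-treated group, and 66784, 74.2 and 35219 CPM in ARNI 1, ARNI 2 and ARNI 3. The 5 ventricular markers (Myl2, Myl3, Irx4, Hey2 and Myh7) summed to 43273 to 43595 CPM in the WKY group, 18563 CPM in ARNI 2, 10624 CPM in ARB 3, 9833 CPM in SHR 2 and 371 to 935 CPM in the other 6 libraries, in 5 of which Irx4 was at 0. Most of that sum in the WKY group was Myh7 (32130 to 32744 CPM, against 5907 CPM in ARNI 2). ARNI 2 held 4161 CPM of Myl2 (3489 to 3776 CPM in WKY) and 8440 CPM of Myl3 (7005 to 7632 CPM in WKY). It held 36.9 CPM of Irx4 (38.8 to 49.7 CPM in WKY) and 19.0 CPM of Hey2 (16.9 to 20.9 CPM in WKY). The 3 WKY libraries and ARNI 2 therefore lacked the marker profile of the labelled tissue. Strain and chamber profile cannot be told apart between the saline groups, and in bulk tissue fewer cells of a type cannot be told apart from less RNA per cell.

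Ndufa10 encodes an accessory subunit of complex I, the enzyme of the inner mitochondrial membrane that passes electrons from NADH to ubiquinone and pumps protons, and cardiac muscle is rich in it. Ndufa10l1 is annotated as a gene similar to Ndufa10. Mettl24 belongs to the methyltransferase-like genes, which share a fold that binds S-adenosylmethionine, and Serhl2 is a serine hydrolase-like gene of the alpha/beta hydrolase fold.

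The starts of the genes are shown because they are the stretches from which transcription of Mettl24 and Serhl2 would begin, with Ndufa10 as the comparison gene. Each runs from 250 bases before the annotated start to 50 after it in RefSeq's GRCr8, the reference strain's sequence and not that of WKY or SHR, and CG dinucleotides are in capitals. Mettl24 lies at chr20:45724805-45725104 on the + strand, Serhl2 at chr7:116125835-116126134 on the + strand, and Ndufa10 at chr9:100489215-100489514 on the - strand.
Mettl24: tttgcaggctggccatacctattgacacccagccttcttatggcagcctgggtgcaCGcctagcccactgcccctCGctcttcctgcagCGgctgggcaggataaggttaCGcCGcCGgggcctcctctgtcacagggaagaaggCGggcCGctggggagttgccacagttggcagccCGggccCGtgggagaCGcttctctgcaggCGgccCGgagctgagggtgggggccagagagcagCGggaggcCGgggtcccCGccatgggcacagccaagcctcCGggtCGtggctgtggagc
Serhl2: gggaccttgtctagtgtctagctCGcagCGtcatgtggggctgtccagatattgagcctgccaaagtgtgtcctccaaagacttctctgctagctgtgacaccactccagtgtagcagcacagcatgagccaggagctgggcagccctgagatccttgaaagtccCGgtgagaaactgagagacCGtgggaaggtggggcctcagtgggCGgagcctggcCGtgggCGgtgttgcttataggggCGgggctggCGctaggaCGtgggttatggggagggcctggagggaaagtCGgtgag
Ndufa10: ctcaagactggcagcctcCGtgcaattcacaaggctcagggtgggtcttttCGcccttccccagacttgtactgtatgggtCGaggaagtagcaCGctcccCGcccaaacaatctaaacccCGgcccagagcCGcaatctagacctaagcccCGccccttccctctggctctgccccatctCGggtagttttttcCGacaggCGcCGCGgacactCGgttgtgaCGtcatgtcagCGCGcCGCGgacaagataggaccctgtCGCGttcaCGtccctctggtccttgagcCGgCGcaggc
The Mettl24 stretch held 18 CG dinucleotides, and 72.5% of the 33469 rat promoters of that length held fewer. Serhl2 held 11 (61.0% held fewer) and Ndufa10 held 24 (82.0% held fewer), against a median of 7, and 94.5% of all promoters held at least 1. The letters TATAAA, searched on both strands, were in none of the 3 stretches and in 14.2% of all promoters. None of the libraries measured methylation or binding at these stretches. Ndufa10l1 is placed on chromosome 6, away from Ndufa10, and is named only.

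Ndufa10l1 was given reads in every library of SHRs and in no WKY library. Its level was 0 CPM in WKY 1, WKY 2 and WKY 3, and 60.9, 101 and 54.0 CPM in SHR 1, SHR 2 and SHR 3. In the treated SHRs it was 64.7, 60.7 and 89.4 CPM in ARB 1, ARB 2 and ARB 3, and 59.2, 119 and 75.0 CPM in ARNI 1, ARNI 2 and ARNI 3. The group means were 72.0 ± 25.4 CPM (SHR), 71.6 ± 15.5 CPM (ARB-treated) and 84.5 ± 31.2 CPM (ARNI-treated; SD, n = 3 each). The 3 groups of SHRs overlapped one another, and none of the 9 libraries came near the WKY group. Of 3304 genes at 0 in all WKY libraries, Ndufa10l1 was the 1 gene at 10 CPM or more in all 9 libraries of SHRs. This comparison was made after its values were seen and in the contrast that chose it.

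Mettl24 had reads in the WKY group and almost none elsewhere. WKY 1, WKY 2 and WKY 3 held 42, 38 and 34 reads, or 3.58, 3.30 and 3.02 CPM (3.30 ± 0.279 CPM; SD, n = 3). Its count was 0 in all 3 SHR, all 3 ARNI-treated and the other two ARB-treated libraries, with 1 read (0.0688 CPM) in ARB 2. With 3 reads over the group as the limit, the level was at least 46.7-fold lower in the SHR group and at least 47.6-fold lower in the ARNI-treated group than in the WKY group. At least 30 reads in each WKY library were held by 11461 genes. Mettl24 was the 1 gene of these with no more than 1 read summed over the 9 libraries of SHRs (114 reads against 1). This was also looked for after its values were seen, with cutoffs close to its own counts and in the contrast that chose it. The gene Uap1l2, at 1.87 to 2.59 CPM in WKY and 0 in all 9 libraries of SHRs, missed only the cutoff of 30 reads. The level was low even in the WKY group, so these folds are bounded by depth.

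Serhl2 was lower in the SHRs and remained well detected in them. It stood at 112, 111 and 103 CPM in WKY 1, WKY 2 and WKY 3 (109 ± 4.79 CPM; SD, n = 3) and at 17.1, 19.7 and 16.1 CPM in SHR 1, SHR 2 and SHR 3 (17.6 ± 1.82 CPM). It was 16.8, 13.3 and 18.4 CPM in ARB 1, ARB 2 and ARB 3 (16.2 ± 2.58 CPM), and 16.6, 25.6 and 19.8 CPM in ARNI 1, ARNI 2 and ARNI 3 (20.7 ± 4.57 CPM). The highest of the 9 libraries of SHRs, ARNI 2, was still below the lowest WKY library. The WKY mean was 6.16 times the SHR mean, 6.73 times the ARB-treated mean and 5.26 times the ARNI-treated mean. The expected count of Serhl2 was not whole in 11 of 12 libraries, so these ratios are uncertain by the division of shared reads. The order of the levels was WKY first, then ARNI-treated, SHR and ARB-treated, and the last 3 overlapped.

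**Figure D1:**
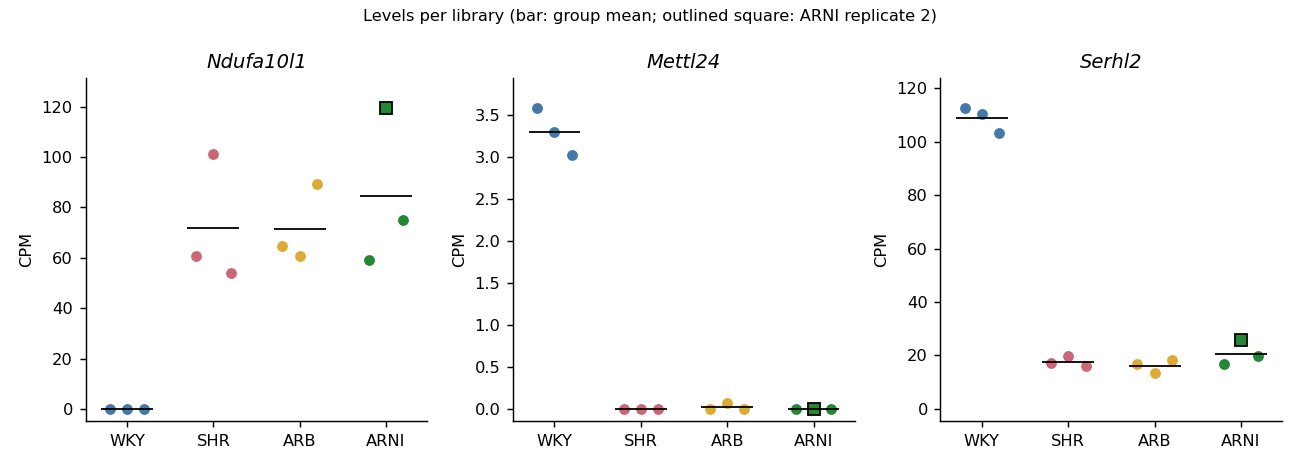
Level of Ndufa10l1, Mettl24 and Serhl2 in CPM (linear vertical axes) in each of the 12 libraries by group, with a bar at the group mean and an outlined square for ARNI 2. All 9 libraries of SHRs lie on the same side of the WKY libraries for each gene, with Ndufa10l1 at 54.0 to 119 CPM against 0 and Serhl2 at 13.3 to 25.6 CPM against 103 to 112.

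On a log2(CPM + 0.5) scale, the space between the nearest of the 9 libraries of SHRs and the nearest WKY library was 6.77 for Ndufa10l1, 2.63 for Mettl24 and 1.99 for Serhl2. A space of at least 2 was found at 13 genes higher and 13 genes lower in SHRs among 14452 genes kept (0.0900% in each direction). Ndufa10l1 ranked first of the 13 higher genes, Mettl24 second of the 13 lower ones, and Serhl2 fell just short. The members were chosen by their WKY to SHR difference, so these places were largely fixed by that choice. The next widest among the higher genes were the interferon-induced Ifit1 (0.0946 to 0.194 CPM in WKY, 12.2 to 34.3 CPM in SHRs), LOC100360940 (0 to 0.237 against 10.3 to 15.2 CPM), the carbonyl reductase Cbr1 (0 to 0.0852 against 6.73 to 14.6 CPM) and the SET-domain gene Setd4 (0 to 0.0889 against 6.74 to 10.2 CPM). Among the lower genes, the haemoglobin gene Hba-a3 had the widest space (6.73 to 13.1 CPM in WKY, 0 to 0.172 CPM in SHRs). Myh7, the beta myosin heavy chain (32130 to 32744 against 357 to 5907 CPM), and Atp1a4, which encodes a catalytic subunit of the sodium pump (2.86 to 3.04 against 0 to 0.140 CPM), were also among the widest. Myh7 is also a ventricular marker, and strain and chamber profile cannot be told apart in its difference.

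Ndufa10l1 shares reads with Ndufa10, and the deposited expected counts show how they were divided. An expected count stops being whole when a read matches more than 1 gene and is split between them. Ndufa10 had the whole counts 7102, 6891 and 6812 in WKY 1, WKY 2 and WKY 3 and counts that were not whole in all 9 libraries of SHRs, and Ndufa10l1 was not whole in the same 9. Summed over both genes, the count was whole in all 12 libraries within a tolerance of 0.011. No other gene did this: of all genes in the table, Ndufa10 gave a whole sum with Ndufa10l1 in 9 of 9 libraries, and the next best gene did so in 3. The levels of the pair are therefore uncertain one by one, while their sum is not affected by the split.

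The pair was divided in nearly one proportion across the SHRs. Ndufa10l1 received 20.1% of the pair's counts in SHR 1 (exact 95% Clopper-Pearson interval 18.9 to 21.3%), 20.1% in SHR 2 (19.2 to 21.1%) and 21.1% in SHR 3 (19.9 to 22.5%). In the ARB-treated group it received 21.1% (19.98 to 22.3%), 20.1% (18.9 to 21.3%) and 18.9% (17.9 to 19.9%), and in the ARNI-treated group 21.9% (20.6 to 23.1%), 20.1% (19.2 to 21.0%) and 19.9% (18.9 to 21.0%). Over the 9 libraries the share was 20.4 ± 0.870% (SD, n = 9), and the interval of ARB 3 did not overlap those of ARB 1 and ARNI 1. The intervals treat expected counts as separate reads and do not cover the error of dividing shared reads. Whether the spread exceeded counting error can therefore not be read from them. In WKY 1, WKY 2 and WKY 3 the share was 0%, where 3 reads allow up to 0.0422, 0.0435 and 0.0440%, with the same limit. The share did not pass an exact two-sided permutation test between groups of SHRs: the difference was -0.407 percentage points for ARB against SHR (p = 0.6), 0.171 for ARNI against SHR (p = 1) and 0.578 for ARNI against ARB (p = 0.7). All 3 adjusted p-values were 1, and the smallest p that 3 libraries against 3 allow is 0.1.

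**Figure D2:**
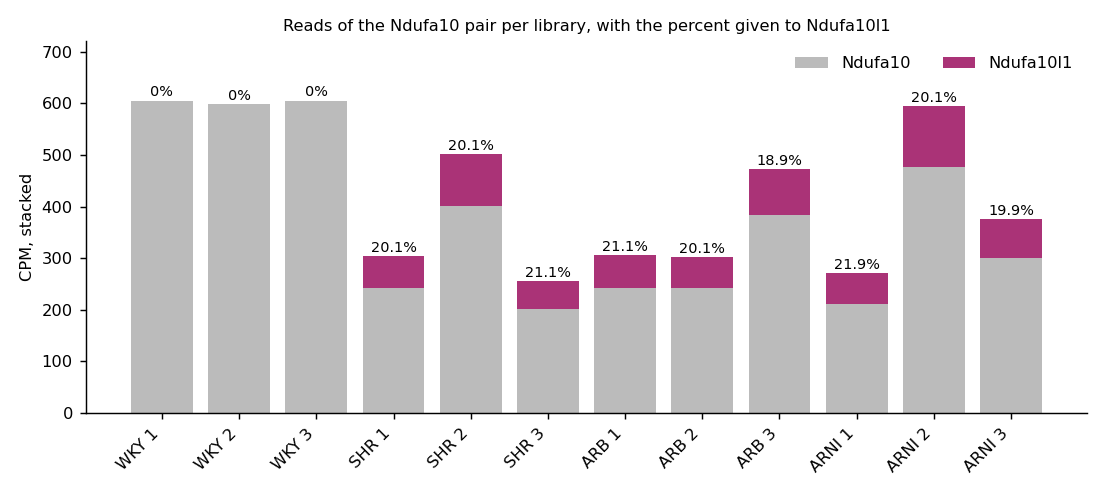
Stacked bars of Ndufa10 and Ndufa10l1 in CPM (linear axis from 0) in each of the 12 libraries, with the percent of the pair's counts given to Ndufa10l1 above each bar. The percent is 0 in the 3 WKY libraries and 18.9 to 21.9 in the 9 libraries of SHRs, while the height of the bar varies from 256 to 605 CPM.

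Ndufa10 itself was lower in the SHR group. It was 605, 599 and 605 CPM in WKY 1, WKY 2 and WKY 3 (603 ± 3.55 CPM; SD, n = 3) and 243, 401 and 202 CPM in SHR 1, SHR 2 and SHR 3 (282 ± 105 CPM). In the treated groups it was 241, 242 and 384 CPM (ARB 1, ARB 2 and ARB 3) and 212, 476 and 301 CPM (ARNI 1, ARNI 2 and ARNI 3). The groups of WKY rats and SHRs did not overlap. Between SHR and WKY, 1226 of 13794 genes tested were DEGs (8.89%), with 764 higher and 462 lower in SHRs, and all 3 members were among them, which their choice fixed. That count was 348 to 2205 with 1 library left out, and without SHR 2 it was 2205, with 1109 higher and 1096 lower. Ndufa10 fell by 1.21 on the log2 scale (SE 0.29, adjusted p = 0.0328, edgeR quasi-likelihood test, Benjamini-Hochberg).

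Taken as a pair, the difference was smaller. The summed level was 605, 599 and 605 CPM in WKY 1, WKY 2 and WKY 3, 303, 502 and 256 CPM in SHR 1, SHR 2 and SHR 3, 306, 303 and 473 CPM in ARB 1, ARB 2 and ARB 3, and 271, 595 and 376 CPM in ARNI 1, ARNI 2 and ARNI 3. With both genes summed before the fit, a step added after the values were seen, the log2 fold change of SHR against WKY was -0.89 (SE 0.29) and missed the threshold (adjusted p = 0.0682, edgeR quasi-likelihood test, Benjamini-Hochberg). The highest library of the SHRs, ARNI 2, was just below the lowest WKY library. Ndufa10 on its own also missed the thresholds in 5 of 6 fits that left out 1 library: its log2 fold change was between -1.60 and -0.99, and its call stayed only without SHR 2 (adjusted p = 0.000401, edgeR).

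Complex I as a whole gives the setting for that value. Of 37 listed subunits, 35 were tested between SHR and WKY, of which 0 rose and 1, Ndufa10, fell past the thresholds (8.89% of all genes were called), and 3 had a positive and 32 a negative log2 fold change. Their median was -0.45 (0.01 over all genes). Summed with Ndufa10l1, Ndufa10 was at -0.89 and was not called, and on its own it was the lowest of the 35. The next was Ndufv2, a core subunit that binds an iron-sulfur cluster, at -0.80 (SE 0.33, adjusted p = 0.117, edgeR quasi-likelihood test, Benjamini-Hochberg). By edgeR, 9 of the 35 had an unadjusted p under 0.05, as did 5428 of all 13794 genes, and DESeq2 called 0 higher and 1 lower. Of 15 assembly factors, 14 were tested and 0 were called by edgeR, with 6 at an unadjusted p under 0.05, 1 called lower by DESeq2 and a median of -0.40. The WKY and SHR groups also differed in their chamber markers, whose part in these values was not tested.

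The families of Mettl24 and Serhl2 had DEGs in both directions. Among 22 other methyltransferase-like genes, 21 were tested, 2 rose in SHRs (Mettl21c by 4.38 and Mettl11b by 1.54 on the log2 scale) and 2 fell (Mettl27, -1.83, and Mettl21a, -1.02), with a median of -0.14. Mettl21c methylates proteins of muscle. Among 28 alpha/beta hydrolase genes, 25 were tested, and 3 rose: Mest (2.13), an imprinted gene, Abhd8 (1.47) and Ephx2 (1.29), the soluble epoxide hydrolase. In that list 4 fell, Abhd10 (-1.45), Abhd15 (-1.38), Cmbl (-1.28) and Abhd2 (-1.02), and the median was -0.05. As shares of the genes tested, 4 of 21 and 7 of 25 stood beside 8.89% of all genes.

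No member passed the thresholds in a comparison between groups of SHRs. Of the 3 members, Ndufa10l1 and Serhl2 passed the filter on low counts in the comparisons among SHRs, and Mettl24, with 1 read in all, did not. No gene was called by edgeR in any of these comparisons: 0 of 13979 for ARB against SHR (0%; 225 at an unadjusted p under 0.05 and 3 called by DESeq2), 0 of 13955 for ARNI against SHR (0%; 227 and 7) and 0 of 13948 for ARNI against ARB (0%; 539 and 18). By DESeq2 the members were not called either. Ndufa10l1 differed by 0.02 (SE 0.32) on the log2 scale for ARB against SHR, 0.33 (SE 0.41) for ARNI against SHR and 0.31 (SE 0.36) for ARNI against ARB. For Serhl2 the corresponding values were -0.09 (SE 0.21), 0.32 (SE 0.25) and 0.42 (SE 0.27). The adjusted p-values of both genes were 0.9999, 0.999 and 0.993 (edgeR quasi-likelihood test, Benjamini-Hochberg). These fits, and the permutation test of the share, treat ARNI and SHR libraries of equal number as unpaired, and the labels give no pairing. With the replicate block for ARNI against SHR, Ndufa10l1 differed by 0.30 (SE 0.14) and Serhl2 by 0.29 (SE 0.16), both with an adjusted p of 0.844 (edgeR), and 0 genes were called, with 731 at an unadjusted p under 0.05.

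One library decided the sign of some of these differences. Without ARNI 2, the log2 fold change of Ndufa10l1 was -0.11 for ARNI against SHR and -0.12 for ARNI against ARB, and that of Serhl2 was 0.05 and 0.14. Ndufa10 followed the same course, with 0.32 (SE 0.44) and 0.26 (SE 0.41) with all libraries, and -0.15 and -0.21 without ARNI 2. If the words of the titles are used for the saline libraries in place of their names, the members are called in both comparisons with saline SHRs. These fits set the treated libraries against the libraries named WKY, whose levels were part of the ground for choosing the members. The calls of the members were therefore largely fixed by that choice. Ndufa10l1 then stood 12.82 (ARB) and 13.11 (ARNI) higher on the log2 scale, Serhl2 at -2.83 and -2.43, and Mettl24 at -6.72 and -8.46. Those of Ndufa10l1 and Mettl24, which had almost no reads in the groups where they were low, are fitted values that depend on the prior count. The 6 treated libraries, whose titles name SHRs, lay with the libraries named SHR at all 3 members.

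ARNI 2, titled as an SHR, had atrial markers as low as those of the WKY group (74.2 CPM) and the highest ventricular markers among the SHRs (18563 CPM). At all 3 members it lay with the SHRs. Ndufa10l1 was 119 CPM in ARNI 2 and 0 in every WKY library, with a share of the pair of 20.1%. Mettl24 was at 0, at least 14.002-fold below the WKY mean. Serhl2 was 25.6 CPM, 4.24-fold below the WKY mean and above the 13.3 to 19.8 CPM of the other 8 libraries of SHRs.

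Most genes that split the saline groups did not behave this way in ARNI 2. A gene was taken as split when the 3 SHR libraries and the 3 WKY libraries were at least 2 apart on the log2(CPM + 0.5) scale, and 127 genes, the members included, were (0.879% of 14452, with 99 higher and 28 lower in SHRs). ARNI 2 was nearer the SHR mean at 35 of the 127 (27.6%), made up of 15 of the 99 higher and 20 of the 28 lower genes. The other 5 treated libraries were nearer it at 117 to 125 (92.1 to 98.4%). All 6 treated libraries were nearer the SHR mean at 30 genes (23.6%), which held Ndufa10l1, Mettl24 and Serhl2. Without SHR 2, the saline SHR library with ventricular markers, 334 genes were split and ARNI 2 was nearer the SHR mean at 14.4% of them.

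**Figure D3:**
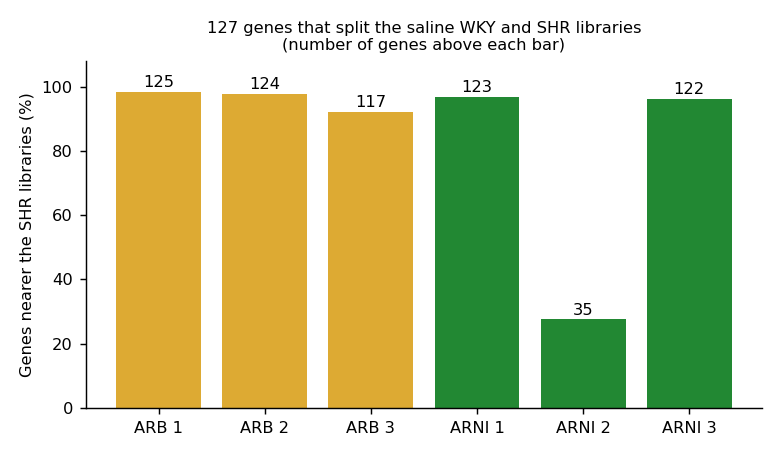
Percent of the 127 genes split between saline WKY and SHR libraries at which each of the 6 treated libraries was nearer the SHR mean (linear axis from 0), with the number of genes above each bar. ARNI 2 stands at 35 genes (27.6%) and the other 5 libraries at 117 to 125.

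Levels within the SHRs moved with the chamber markers for Ndufa10l1. The 3 libraries of SHRs with ventricular markers (SHR 2, ARB 3 and ARNI 2) had 101, 89.4 and 119 CPM of Ndufa10l1, above the 54.0 to 75.0 CPM of the other 6. Their summed pair was 502, 473 and 595 CPM against 256 to 376 CPM, while the share of the pair stayed at 18.9 to 21.9% in all 9. Mettl24 stayed at 0 in those 3 libraries. For Serhl2 the values in them were 19.7, 18.4 and 25.6 CPM, against 13.3 to 19.8 CPM in the other 6, and the ranges overlapped. The part of the chamber profile in these levels was not tested.

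**Figure D4:**
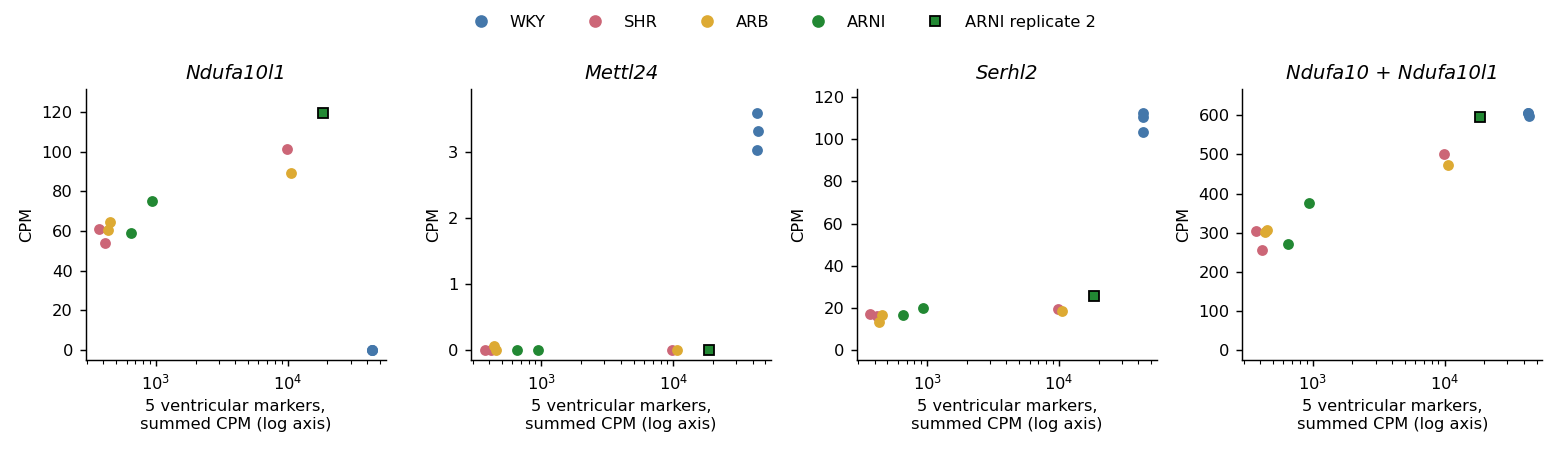
Level of each member and of the summed Ndufa10 pair in CPM (linear vertical axes) against the summed CPM of 5 ventricular markers (log axis), 1 point per library, colored by group with a square for ARNI 2. Myh7 made up most of the marker sum in the WKY libraries. Among the SHRs the 3 libraries at the right have the highest Ndufa10l1 (89.4 to 119 CPM), while Mettl24 stays at or near 0 and Serhl2 below 26 CPM at every marker level.

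Few genes beside the members in the RefSeq gene order had counts, and none of those showed a member's pattern. Of the 3 genes on each side of Mettl24, Ddo (0.440 to 1.70 CPM in WKY, 0.814 to 3.14 CPM in SHRs), which encodes D-aspartate oxidase, and the splicing factor gene Cdc40 (18.7 to 21.4 against 21.0 to 24.4 CPM) had counts, and both overlapped. Beside Serhl2, Rrp7a, a ribosome biogenesis gene, was higher in SHRs without overlap (21.4 to 22.0 against 29.9 to 37.4 CPM), the opposite direction to Serhl2. The share of all genes without such overlap was not counted. Poldip3 (25.7 to 31.0 against 30.8 to 47.7 CPM) and Nfam1 (3.20 to 5.37 against 2.10 to 9.20 CPM) overlapped. Beside Ndufa10l1 only Lrrn3 had counts, at 0.174 to 0.444 CPM in WKY and 0.190 to 1.36 CPM in SHRs. Its level in WKY was near the limit of 3 reads, so Lrrn3 cannot show whether the pattern of Ndufa10l1 is shared.

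By the root mean square difference of centred log2(CPM + 0.5) over the 12 libraries, the genes most like Ndufa10l1 were Ifit1 (1.14), Cbr1 (1.26) and LOC100360940 (1.30). Those most like Mettl24 were Atp1a4 (0.16), the axonemal dynein gene Dnah14 (0.21) and Uap1l2 (0.24). Serhl2 was nearest to Atp1a4 (0.23), Uap1l2 (0.23) and Mettl24 (0.28). The added 0.5 CPM shortens differences of low genes such as Mettl24, and no gene came near the size of the change of Ndufa10l1. The expected count of Serhl2 was not whole in 11 of 12 libraries, and no gene gave whole sums with it in more than 3 of them, so its reads were also shared with features that are not identified here and its level is uncertain to that extent.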

How the data were processed

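SOAPnuke was used by the authors to filter reads, HISAT2 (2.0.4) and Bowtie2 (2.2.5) to map them, and RSEM to estimate the expected counts that they deposited, which are not normalized. The build is Rnor 6.0 per the submitters' processing notes. The deposited table lists 37246 genes and also holds the authors' log2 fold change and p-value of SHR over WKY from DESeq2, which were not used.

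Expected counts were rounded to whole numbers, filtered with filterByExpr, scaled by TMM and tested by the quasi-likelihood method of edgeR (edgeR 4.0.16, limma 3.58.1, R 4.3.3) on the 6 libraries of each pair of groups. The Benjamini-Hochberg method adjusted p-values over all genes tested, and a gene was a DEG if its adjusted p was 0.05 or less and its log2 fold change was 1 or more in size, the study's thresholds. Standard errors came from the F statistic. Levels are CPM of unrounded counts. DESeq2 (1.42.0) and Python (3.11.15, with pandas 2.3.3 and scipy 1.17.1) were also used. The edgeR and DESeq2 fits were tried on counts simulated for ARB against SHR only. That simulation held no library that differed from its group in chamber profile. Total counts were 11252361 to 15823525. Reads carry no molecular identifiers, so intervals and limits cover counting error only, and not the division of reads shared between genes.

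The members, the gene lists and the tests were chosen with earlier results of these data known. The genes named were the members and Ndufa10, the listed families, the 3 nearest genes on each side in RefSeq order, the 3 genes with the most similar pattern, and the 5 widest spaces per direction, of which 1 gene is not reported here. RefSeq's GRCr8 tables gave gene order and promoters, and 19467 of 21239 identifiers (91.7%) were found. Each rat's library is 1 replicate. Nothing in the labels ties equal replicate numbers. The deviations of same-numbered ARNI and SHR libraries correlated at 0.54, 0.48 and 0.22. A fit with a replicate block is therefore given beside the unpaired one for that comparison. SHR 2 and ARNI 2 both had ventricular markers, so these correlations cannot tell paired animals from a shared chamber profile. The other comparisons had correlations from -0.44 to 0.54 with at least 2 below 0.1, and are read from the unpaired fit. Alternatives were other scalings, filters, samples and pseudocounts, each library left out, a replicate block, DESeq2, and the titles' strain words.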

Additional observations from a re-analysis of the deposited data

How the results depend on the processing

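Of 185 values computed under an alternative, 146 kept their direction, call or size. Genes called for SHR against WKY were 579 with all 12 libraries in the fit, 681 with a replicate block and 348 to 2205 with 1 library left out (2205 without SHR 2). DESeq2 called 3 genes (ARB against SHR), 7 (ARNI against SHR) and 18 (ARNI against ARB), where edgeR called 0. With the strain words of the titles in place of the library names, 1526 genes were called for ARB against SHR and 34 for ARNI against SHR. Ndufa10l1 was then at 12.82 and 13.11, Serhl2 at -2.83 and -2.43 and Ndufa10 at -1.14 and -0.90 on the log2 scale, for ARB and ARNI in that order, because the saline libraries are exchanged. The members were chosen partly on the libraries named WKY, which these fits use, so their large values were mostly fixed by that choice.

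Leaving out 1 library gave log2 fold changes of Ndufa10l1 from -0.23 to 0.40 (ARB against SHR), -0.11 to 0.70 (ARNI against SHR) and -0.12 to 0.56 (ARNI against ARB), of Serhl2 from -0.24 to 0.070 (ARB against SHR), and of Ndufa10 from -0.25 to 0.46, -0.15 to 0.72 and -0.21 to 0.58 in the same 3 comparisons. None passed the threshold, and the cause was not tested. Ndufa10 in SHR against WKY missed it with all 12 libraries (-1.22, adjusted p = 0.0735, edgeR) and with the replicate block (-1.30, adjusted p = 0.0605, edgeR), where its log2 fold change was no smaller than the -1.21 reported, and with the pair summed (-0.89, adjusted p = 0.0682, edgeR). The replicate block left 12 of 14 values the same and called 0 genes among the treated comparisons. ARNI 2 was nearer the SHR mean at 14.4 to 31.5% of split genes when 1 saline library was left out, 27.8% with a pseudocount of 1, 28.8% with 0.1, 29.3% with TMM scaling, and 22.3 and 28.3% at a space of 1 and 3. At a space of 3, Mettl24 and Serhl2 were no longer split genes. The WKY to SHR ratio of Serhl2 was 5.91 to 6.54 with 1 library left out and 6.74 with TMM scaling. These values do not cover the division of its shared reads.

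With 3 libraries a group, a share of reads cannot pass an exact test, and Mettl24, at 0 to 42 reads, is bounded by depth. The labels conflict for the 6 saline libraries.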

Other observations

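A search prompted by Ndufa10 and made after its values were seen asked which other genes had whole expected counts in the WKY group and not in the SHRs. Of 12260 genes with at least 10 reads in every library, 4 were whole in the 3 WKY libraries and not whole in all 9 libraries of SHRs: Ndufa10, Nhsl1, Eppk1, a plakin of the cytoskeleton, and Casq1, the calsequestrin of fast skeletal muscle. The reverse held for 1 gene, Uap1, which encodes an enzyme that makes UDP-N-acetylglucosamine. Uap1l2, named after Uap1, had expected counts of 21.9, 29.75 and 24.2 in WKY 1, WKY 2 and WKY 3 and 0 in all 9 libraries of SHRs. The sum of Uap1 and Uap1l2 was whole in all 12 libraries, and Uap1l2 received 6.07, 6.92 and 6.25% of it in the 3 WKY libraries. In the 9 libraries of SHRs the whole sum was fixed by the choice of Uap1 and the counts of 0 of Uap1l2. The level of Uap1 overlapped between the strains (28.9 to 34.8 CPM in WKY, 25.1 to 69.7 CPM in SHRs).

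The remaining values are from the 26 genes that stood at least 2 apart on the log2(CPM + 0.5) scale between all 9 libraries of SHRs and the WKY group. The fatty acid transporter Cd36 was at 1382 to 1584 CPM in WKY and 63.6 to 285 CPM in SHRs, with the highest SHR value in ARNI 2. The class I histocompatibility gene RT1-CE2 was at 2.61 to 4.54 CPM in WKY and 24.5 to 44.0 CPM in SHRs. Zp2, an egg coat gene, was at 0 to 0.0870 against 3.11 to 7.86 CPM, and Tdrd1, a germ line gene, at 8.71 to 9.12 against 0 to 1.49 CPM. Ifi44l was at 11.1 to 12.4 against 1.01 to 2.37 CPM, and Gvin1 at 11.2 to 12.2 against 0.661 to 1.88 CPM. Of the 24 of these 26 genes found in the RefSeq table, 1 pair, Cbr1 and Setd4, lay within 3 places of each other, on chromosome 11 and in the same direction.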
